A study of Drosophila melanogaster with 2 samples.

Results

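The peaks described here are 707 binding peaks of the fly protein CG17806 that lie between genes but close to them. They were chosen by position alone from the list that the authors filtered by irreproducible discovery rate (IDR), a measure of how well peaks keep their order between replicates, and which holds 6938 other peaks. The rule kept a peak when its summit lay in no annotated gene, over 500 bp from the start site of every gene and at most 5000 bp from the nearest protein-coding start site. The 707 made up 9.25% of the IDR peaks (Wilson 95% interval 8.62 to 9.92) and 46.3% of the 1527 that lie between genes. The other 820 of those lay further than 5 kb from a coding start site.

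The data were peak lists from chromatin immunoprecipitation and sequencing (ChIP-seq) of whole Drosophila melanogaster pupae aged 24 hours. All animals came from 1 transgenic line that stably carries CG17806 with green fluorescent protein (GFP) fused to its C-terminal end, and the chromatin was sheared by sonication and precipitated with an antibody against GFP. There are 2 biological replicates of this 1 group and no other condition. Because whole animals whose sex was not recorded were used, all pupal cell types were mixed, and binding in few cells cannot be told apart from weak binding in many. The antibody sees the tagged protein, and no sample without the tag was analysed here.

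CG17806 encodes a C2H2 zinc-finger protein with an amino-terminal zinc-finger-associated domain, a family that is large in insects and holds sequence-specific DNA-binding proteins, some of them insulator proteins. Sequence between fly genes, near but outside the promoters, is where many enhancers and insulators lie. A peak there is assigned to its nearest coding start site only as a position, since an enhancer can act on a gene further away.

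The base sequences under 11 of these summits are shown first, because base composition is something that most of the peaks had in common. They are 9 of the 10 peaks of highest signal and, from the 20 of highest signal, both peaks whose centre was no richer in A and T than its flanks (the second peak at tara and the peak at DNAlig3). Each is 101 bases of the plus strand of dm6 centred on the summit, from the Release 6 genome sequence, and is named for the gene with the nearest protein-coding start site. Capitals mark runs of 6 or more A or T bases.
CG31668, chr2L:2202356-2202456: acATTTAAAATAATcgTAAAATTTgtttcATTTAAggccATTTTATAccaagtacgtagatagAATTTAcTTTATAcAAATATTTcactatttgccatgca
CG43245, chr3L:10776518-10776618: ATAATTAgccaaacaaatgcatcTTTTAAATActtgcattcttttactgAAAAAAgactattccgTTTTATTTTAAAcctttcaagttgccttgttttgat
tara (peak ranked 117), chr3R:16224455-16224555: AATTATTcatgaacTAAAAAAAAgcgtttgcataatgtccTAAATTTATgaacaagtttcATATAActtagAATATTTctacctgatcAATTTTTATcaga
E(spl)malpha-BFM, chr3R:26009038-26009138: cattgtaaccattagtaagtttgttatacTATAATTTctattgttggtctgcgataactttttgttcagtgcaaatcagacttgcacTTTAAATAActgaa
CG43131, chr3R:5113225-5113325: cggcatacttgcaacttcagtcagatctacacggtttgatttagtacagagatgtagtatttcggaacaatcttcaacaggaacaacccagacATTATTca
CG43389, chr3L:3246450-3246550: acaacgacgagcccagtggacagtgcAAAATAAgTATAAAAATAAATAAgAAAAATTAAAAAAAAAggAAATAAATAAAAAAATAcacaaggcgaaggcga
Gbs-70E, chr3L:14552996-14553096: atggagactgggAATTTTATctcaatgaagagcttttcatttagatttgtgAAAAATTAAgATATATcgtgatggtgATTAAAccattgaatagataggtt
ds, chr2L:715517-715617: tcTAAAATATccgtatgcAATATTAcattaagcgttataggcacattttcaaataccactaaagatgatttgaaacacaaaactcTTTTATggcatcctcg
fz, chr3L:14272557-14272657: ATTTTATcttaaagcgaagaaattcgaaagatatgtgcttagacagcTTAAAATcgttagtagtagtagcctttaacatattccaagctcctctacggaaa
tara (peak ranked 211), chr3R:16222442-16222542: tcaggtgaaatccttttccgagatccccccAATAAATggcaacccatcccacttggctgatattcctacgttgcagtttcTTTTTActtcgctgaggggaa
DNAlig3, chr3R:12403069-12403169: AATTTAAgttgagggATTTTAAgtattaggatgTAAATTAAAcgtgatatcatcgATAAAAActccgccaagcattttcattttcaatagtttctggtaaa

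In the window at CG31668 the longest capital run was 12 bases and the A and T content 75.2%, against 37.3% in its flanks. The window at CG43389 held a run of 17 bases, and the window at CG43131 no run above 6. Over 18 windows of this size taken from the 20 strongest peaks, the longest run was between 6 and 22 bases. Across all 707 peaks the median longest run was 11 bases, against 8 in windows of eligible sequence and 11 in such windows weighted to the peaks' A and T content. Eligible sequence means all 12.64 Mb of the genome, 9.44% of the 6 chromosome arms, where a summit would have met the rule.

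Summits lay on stretches rich in A and T, flanked by sequence poorer in both. The 101 bases around the summit held 69.8% A and T on average (SD 7.88 over 707 peaks). The flanks, a pair of 51-base windows centred 250 bp to each side, held 53.4% (SD 8.80), and 125187 eligible windows of 101 bases held 59.6% (SD 9.71). The centre was richer than the flanks at 631 peaks, or 89.2% (86.7 to 91.3), where the share over all IDR peaks was 87.7%. The share among the 707 was thus near the background. Peaks beyond 5 kb had a centre of 70.8% and flanks of 51.7%, and promoter peaks had 68.0% and 56.3%.

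The A and T content fell off within a short distance of the summit, dropped under the mean of eligible windows, and came back to it near 600 bp. It was highest at 70.4% in the 10 bp bin 10 bp to the left of the summit and lowest at 52.6% in the bin 290 bp to the right. At 600 bp it was 59.6%. The peaks that met the same rule among the strongest of each replicate, taken to the length of the IDR list, had centres of 69.8% in replicate 1 and 69.1% in replicate 2. The 528 peaks whose summit was outside soft-masked repeats had a centre of 68.5% and flanks of 53.4%.

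**Figure D1:**
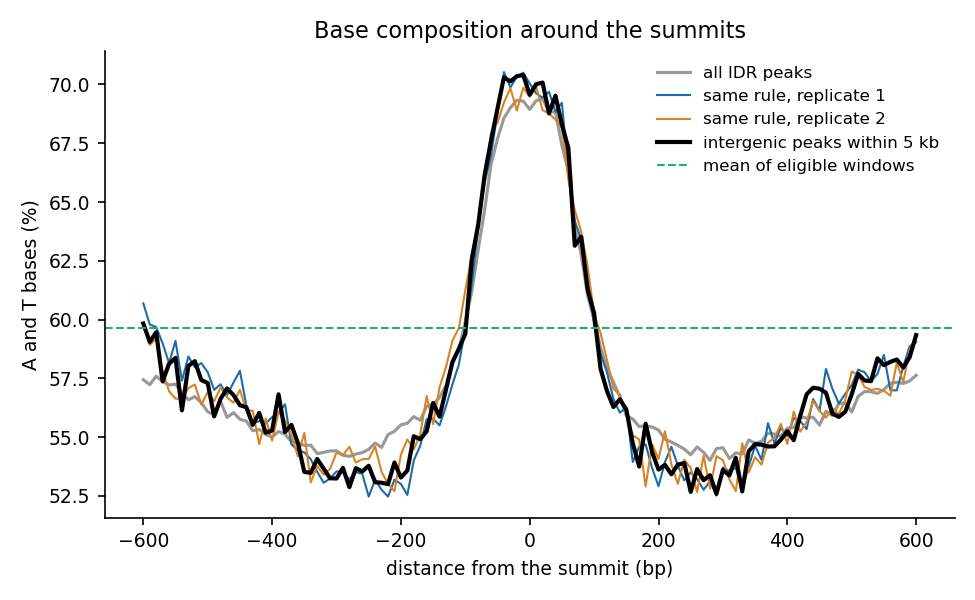
Share of A and T bases (y axis, %) in 10 bp bins against distance from the summit (x axis, bp) for the intergenic peaks within 5 kb, for peaks that met the same rule in each replicate list and for all IDR peaks; the dashed line is the mean of eligible windows. The y axis starts above 0. The lines of both replicates follow the black line, which peaks at 70.4% near the summit and falls to 52.6%.

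With the peaks split into 5 equal parts by signal, the mean centre went from 70.7% (SD 5.63) in the strongest part to 68.6% (SD 9.72) in the weakest. In the whole pooled list, which runs on to weaker peaks, the same rule gave a mean of 63.8%. The extremes were 88.1% and 28.7%, and 74 peaks (10.5%) lay below the mean of eligible windows. Among these peaks, 179 summits (25.3%) were soft-masked, near the 25.6% of all IDR summits and above the 20.4% of eligible bases. Of the summits, 4 lay inside an annotated transposable element.

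The sequences were also searched on both strands for 22 short motifs of known fly factors within 50 bp of the summit. TATAAA, the core of the TATA box, was present at 186 peaks, or 26.3% (23.2 to 29.7), and at 25.2% of all IDR peaks. It was present in the flanks of 8.49% of peaks and in 13.4% of eligible windows, but in 27.2% of eligible windows weighted to the peaks' A and T content. Its share was therefore above the flanks and not above windows of like composition. The homeodomain core TAATTA was found at 83 peaks (11.7%), against 4.67% of flanks and 13.6% of weighted windows. Of the 18 windows from the strongest peaks, 3 held TATAAA, those at CG31668, CG43389 and CG18404.

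Several motifs were less frequent at the summits than in the flanks. That comparison does not allow for the lower A and T content of the flanks. GAGAGAG, a site of the GAGA factor, was found at 2 peaks (0.283%), in the flanks of 16 (2.26%) and in 0.454% of weighted windows. All IDR peaks held it at 1.14%. The E-box CAGCTG was found at 6 peaks (0.849%), in the flanks of 28, in 1.70% of weighted windows and at 1.99% of all IDR peaks. AGGTCA, a site bound by the ecdysone receptor, was at 5 peaks (0.707%) and in the flanks of 15. It was in 1.74% of weighted windows and at 1.84% of all IDR peaks. GCCAT, a Pleiohomeotic site, was at 85 peaks (12.02%), at 10.9% of all IDR peaks, in the flanks of 144 (20.4%) and in 12.7% of weighted windows. CAGGTAG, a Zelda site, was at 4 peaks (0.566%, 0.220 to 1.45) and in the flanks of 1. It was in 0.275% of weighted windows and at 0.340% of all IDR peaks, and its counts are too small to compare. For the insulator proteins, GCATACTTT, a core of the Su(Hw) site, was found at 5 peaks and AGGTGGCGC, a core of the CTCF site, at 3. Weighted windows held these at 0.365% and 0.0278%, and all IDR peaks at 0.366% and 0.131%. The peaks held them at 0.707% and 0.424%, counts too small to compare. CGATA, the repeated unit of the BEAF-32 site, was at 81 peaks (11.5%), near the 11.05% of all IDR peaks, and in 9.75% of weighted windows.

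Words of 6 bases were ranked by their excess over weighted windows in the 232 peaks on chromosome 2 and then read in the 475 peaks on the other chromosomes. AGAAGA ranked first at 11.2% of peaks, but on the other chromosomes it was at 4.21%, below the 5.05% of weighted windows. TAGTAA, ranked 5 on chromosome 2, was at 12.9% of peaks there and at 11.2% on the other chromosomes, where it ranked 16 of 2080 words. Weighted windows held it at 7.41%, the flanks of peaks on the other chromosomes at 1.89%, and all IDR peaks at 9.18%. Of the first 20 words, 14 were above weighted windows on the other chromosomes, as were 48.3% of all words. Of the windows from the strongest peaks, those at E(spl)malpha-BFM and CG17746 held TAGTAA.

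Most of the peaks had a summit somewhere in both replicate lists, which hold 30000 peaks each. A summit lay within 100 bp in the lists of both replicates for 648 peaks, or 91.7% (89.4 to 93.5), where the share over all IDR peaks was 92.3%. Since the authors derived the IDR peaks from these same lists, the share describes the list and is no independent check. Of the rest, 26 had a summit in replicate 1 alone, 32 in replicate 2 alone and 1 in neither. The strongest peak with no summit in replicate 2 was nearest to CG10357 (IDR rank 1530, rank 1390 in replicate 1), and the strongest with none in replicate 1 was nearest to CG17570 (IDR rank 2359, rank 2300 in replicate 2). Summits were a median of 5 bp from the replicate 1 summit and 15 bp from the replicate 2 summit.

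Peak strength is given as a rank by the authors' signal, with 1 the highest in a list. Over the 648 peaks in both lists, the signals of the replicates had a Spearman rho of 0.813, a description across peaks that share libraries and control, against 0.803 over the 7056 such peaks of the whole IDR list. The median IDR rank was 4035, close to the middle of the list, and 23.3% of peaks were in its strongest 25%. Promoter peaks had a median rank of 3630.5, peaks beyond 5 kb 3894.5 and peaks inside genes 3878.5. In replicate 1, 673 of 674 peaks with a summit were at the list's highest −log10 q of 4.46, and in replicate 2, 508 of 680 were at its highest of 4.09. The lowest were 2.80 and 0.194, so the weakest call in replicate 2 had little support there.

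**Figure D2:**
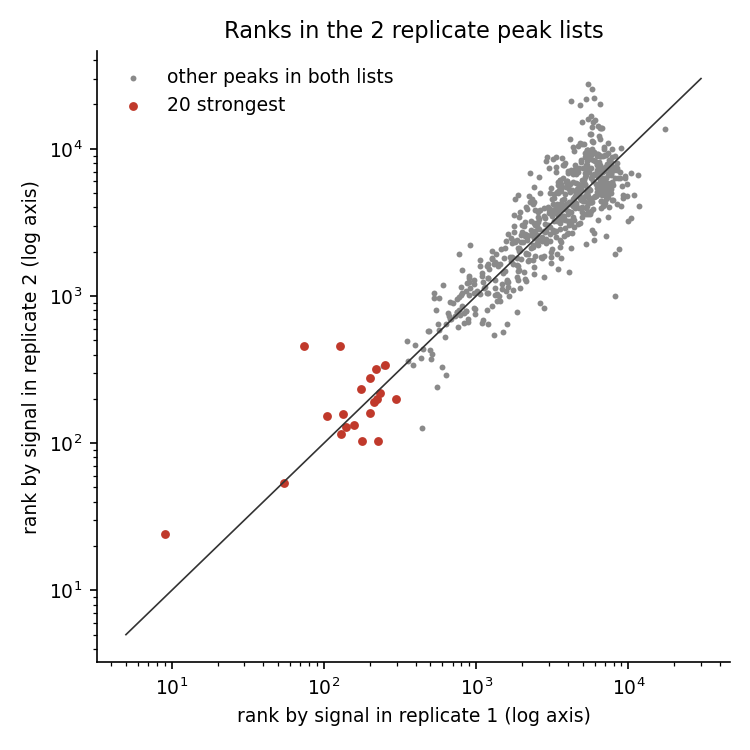
Rank by signal in replicate 1 (x axis, log scale) against rank in replicate 2 (y axis, log scale) for the 648 peaks with a summit in both lists; the line marks equal ranks and red points are the 20 peaks of highest signal. The red points lie at ranks up to 298 in replicate 1 and up to 460 in replicate 2, and the cloud follows the line.

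The strongest of the peaks had its summit 3760 bp downstream of the start of CG31668, in a gap of 5808 bp between COX7AL2 and CG31668. Its signal was 2659.5 in replicate 1 (rank 9) and 1040.9 in replicate 2 (rank 24), and it was ranked 14 of all IDR peaks. The same gap held 4 of the peaks, among them the peak ranked 179, 1438 bp upstream of COX7AL2, a gene named for a subunit of cytochrome c oxidase. Signals are on each list's own scale, so a value in replicate 1 is not comparable with a value in replicate 2, and the ranks are given for that.

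The 20 strongest peaks were in both replicates, at worst ranked 298 in replicate 1 and 460 in replicate 2. Of these, 17 were upstream of their nearest coding start site and 4 were nearest to a gene with a peak at its own promoter. The second was nearest to CG43245 at 4643 bp, with ranks of 55 and 54 in replicates 1 and 2. A pair lay 1146 and 3159 bp upstream of tara, which encodes a transcriptional co-regulator, at ranks 105 and 152 for the nearer and 232 and 219 for the further peak. Another peak upstream of tara (IDR rank 2238) had a summit in replicate 1 alone.

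Several of the strongest peaks stood near genes of signalling pathways. The peak 1805 bp upstream of E(spl)malpha-BFM, a Bearded-family target of Notch, had ranks of 129 and 116 and signals of 1258.7 and 635.3 in replicates 1 and 2. A peak 584 bp upstream of ds, an atypical cadherin of planar polarity and growth control, had ranks of 157 and 132. The peak 1736 bp upstream of fz, a Wnt receptor that also acts in planar polarity, had ranks of 227 and 103. The last placed of these ranks was 227, in lists of 30000.

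Among the rest of the 20, Gbs-70E encodes a glycogen-targeting subunit of protein phosphatase 1 and its peak, 2071 bp upstream, ranked 134 and 157. DNAlig3 is a DNA ligase and Fbxl7 an F-box protein, with peaks 1280 and 1322 bp upstream. The peak nearest to CG43389 was at rank 74 in replicate 1 and 458 in replicate 2, and that nearest to CG18404 at 127 and 460, the widest rank differences among the 20. Peaks nearest to CG43131, fng, CG17896, CG17746, CG15625, nw and CG5953 completed the set, at IDR ranks from 130 to 283.

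Peaks were denser upstream of coding genes than in the eligible sequence downstream of a start site. Of the 707, 549 were upstream of the nearest coding start site, or 77.7% (74.4 to 80.6), against 69.3% of eligible bases and 70.2% of eligible bases weighted to the peaks' distances. That is 62.6 peaks per Mb upstream (exact Poisson 95% interval 57.5 to 68.1) and 40.8 downstream (34.7 to 47.6). By the same rule, 77.4% of peaks in replicate 1 and 76.0% in replicate 2 were upstream. Intervals of shares and densities are for counting error alone, and peaks that stand close together are not independent.

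The difference between the sides was widest near the start site. From 500 to 1000 bp there were 116 peaks upstream (65.7 per Mb, 54.3 to 78.8) and 5 downstream (21.1 per Mb, 6.85 to 49.2). From 1000 to 1500 bp there were 109 upstream (81.8 per Mb) and 11 downstream (27.9 per Mb). From 3500 to 4000 bp the densities were 55.2 and 56.5 per Mb. The median distance was 2114 bp (quartiles 1251.5 and 3440.5 bp), against 2334 bp for eligible bases. A base downstream of a start site is eligible only past the end of its gene, so the downstream bases nearest the start site belong to short genes.

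**Figure D3:**
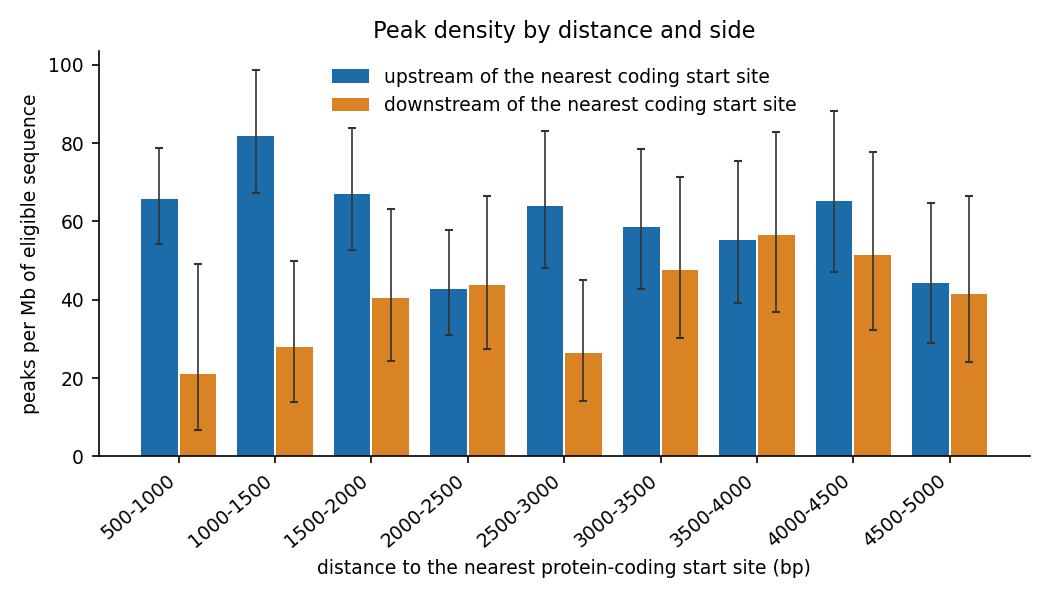
Peaks per Mb of eligible sequence (y axis) in 500 bp steps of distance to the nearest protein-coding start site (x axis, bp), upstream in blue and downstream in orange, with exact Poisson 95% intervals for counting error alone. The intervals of the sides are apart from 500 to 1500 bp and from 2500 to 3000 bp, and overlap elsewhere.

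Gaps between genes that start away from each other held more peaks per Mb than gaps into which both genes run. The former lie upstream of both flanking genes and the latter downstream of both. This comparison therefore overlaps with that of the sides above, and it was not made within a side. Divergent gaps held 275 peaks, 69.7 per Mb (61.7 to 78.4), tandem gaps 350 peaks, 52.7 per Mb (47.4 to 58.6), and convergent gaps 82 peaks, 39.8 per Mb (31.7 to 49.4). Divergent gaps made up 31.2% of eligible sequence and held 38.9% of the peaks. The nearest start site of any gene was that of a coding gene for 585 peaks (82.7%) and that of a non-coding RNA for 115 (16.3%). A non-coding RNA lay nearest, for example, at both tara peaks, 905 and 903 bp away.

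At the threshold of 500 bp, the nearest peaks inside the rule were 501 bp from a start site (nearest to CG43401, IDR rank 2418) and 506 bp (Cbs and CG8635, ranks 4366 and 4341). Those just outside were 498, 497 and 496 bp away (zormin, CG12362 and scrib, ranks 1423, 4525 and 2737). At 5000 bp, the last inside were 4998, 4986 and 4966 bp from a coding start site (CG13481, CG8117 and CG4218, ranks 935, 3594 and 1095). The first outside were 5007, 5034 and 5044 bp away (Tollo, hid and CG17104, ranks 1386, 151 and 6543). The strongest of these neighbours, at hid, fell outside by 34 bp.

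Chromosome arm 3L held the most peaks per Mb. It had 208 peaks, 79.0 per Mb of eligible sequence (68.7 to 90.5), and by the same rule 79.8 per Mb in replicate 1 and 81.3 in replicate 2. Arms 2L and 3R had 53.8 and 55.0 per Mb, X had 48.1 (38.8 to 59.0) and 2R had 41.0 (33.2 to 50.1). On the small chromosome 4 there were 2 peaks in 0.0942 Mb of eligible sequence. Over all IDR peaks and whole arms, 3L had 62.9 per Mb, X 61.1 and 2R 50.8. Over all arms the density of the 707 was 55.9 per Mb of eligible sequence, against 57.1 IDR peaks per Mb of the genome.

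**Figure D4:**
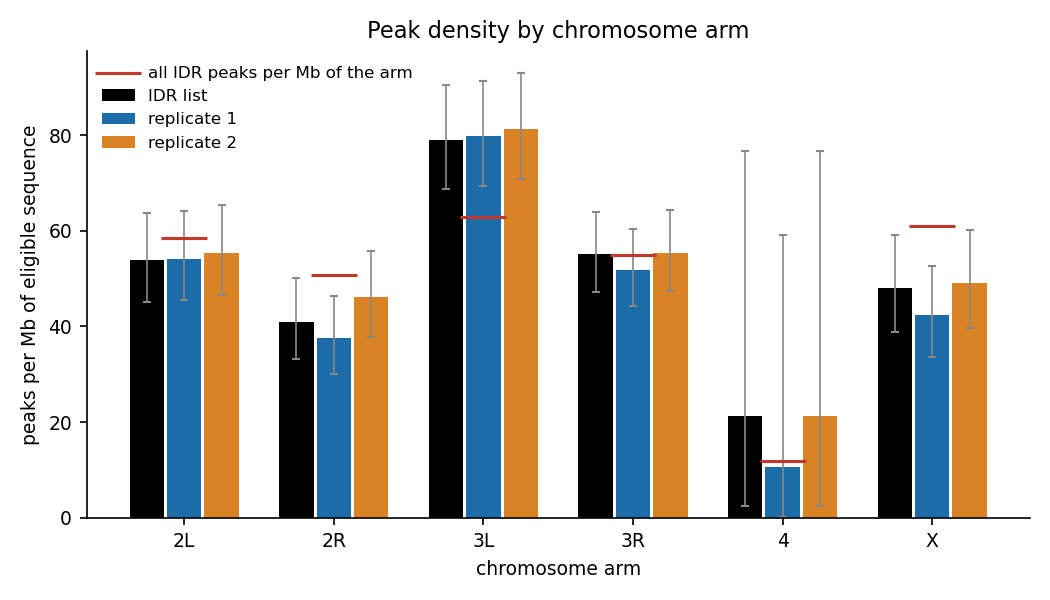
Peaks per Mb of eligible sequence (y axis) on each chromosome arm (x axis) in the IDR list and, by the same rule, in the strongest peaks of each replicate (as many as the IDR list holds), with exact Poisson 95% intervals; red marks give all IDR peaks per Mb of the whole arm. All 3 bars of 3L lie between 79.0 and 81.3 per Mb.

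Many peaks stood in clusters. Another IDR summit lay within 2 kb of 389 peaks, or 55.0% (51.3 to 58.7), where the share over all IDR peaks was 47.5%. It was 36.95% for promoter peaks, 52.2% for peaks inside genes and 51.95% for intergenic peaks beyond 5 kb. The shares of both non-promoter classes lay within the interval of the 707. The neighbour was another of the 707 for 250 of the 389, a promoter peak for 111, a peak beyond 5 kb for 17 and a peak inside a gene for 11. The share was 71.1% in the strongest of the 5 parts by signal and 46.8% in the weakest. The smallest distance to the next IDR summit was 199 bp, found for pairs of these peaks upstream of CG12984 and shd and for 3 peaks nearest to CG34221, CG9743 and Eip75B. The most isolated peak, nearest to CG41378, was 3228303 bp from the next IDR summit and had a summit in replicate 2 alone.

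The 707 peaks fell in 504 gaps between genes, 366 of them with 1 peak, 97 with 2, 23 with 3 and 18 with 4 or 5. Among chains of IDR summits at most 2 kb apart, the chain with most of these peaks spanned 7406 bp at chr3L:800292-807698, with 6 peaks on both sides of CG13898. The 6 had replicate 1 ranks of 558, 1586, 1782, 2971, 3476 and 4539, and replicate 2 ranks of 647, 1286, 2979, 4047, 5207 and 4258. At vers, 5 peaks stood 820 to 4445 bp upstream, with replicate 1 ranks of 570, 602, 1371, 3232 and 3681 and replicate 2 ranks of 970, 1178, 1036, 3676 and 5522. At CG12984, 5 stood 1238 to 4607 bp upstream, from rank 528 to 3329 in replicate 1 and from 1045 to 8774 in replicate 2. Within each of these clusters, then, peaks of unlike rank stood side by side in both replicates. At vers and CG12984 all 5 replicate 1 ranks were ahead of 3837.5, the median there of the peaks with a summit in that list.

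Peaks were near few genes, and a small set of genes had several. Of 6234 coding genes with any eligible sequence, 501 were nearest to a peak, the 8.04% that serves below as the background for gene lists. Of these 365 had 1 peak, 89 had 2, 28 had 3 and 19 had 4 or more. The genes with a peak had a median of 3.55 kb of eligible sequence, against 1.09 kb for all 6234, so gap length and the number of peaks move together. The 19 were CG13898 with 6 peaks, CG12984 and vers with 5, and with 4 each CG43245, fng, Cyt-c1L, Rh5, CG33795, CG14147, CG7557, CG42852, Gr93a, Gr93b, hng3, Dyro, shd, CG42693, CG12479 and Cpr12A. Of the 19, 12 lie on 3L and 4 have a promoter peak (hng3, Dyro, shd and Cpr12A).

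Several of these genes have known roles. All 4 peaks of fng, a glycosyltransferase that modifies Notch, were upstream, at ranks 179, 807, 1984 and 5917 in replicate 1 and 104, 1043, 2337 and 4732 in replicate 2. Those of shd, the enzyme that turns ecdysone into its active form, were also upstream, at IDR ranks 1631, 1783, 4813 and 6747, and the peak ranked 4813 had no summit in replicate 1. Both fng and shd are longer than 5 kb, so the rule left them almost no eligible sequence downstream. Rh5 encodes a rhodopsin of the eye, with peaks on both sides at IDR ranks from 735 to 5565. The gustatory receptor genes Gr93a and Gr93b had 4 peaks each, and the gap between them held 5. Cpr12A, a cuticle protein gene, had its 4 peaks at IDR ranks 5420 to 7311, all in the weaker part of the list.

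Some peaks were nearest to a gene that had a peak at its own promoter as well. For 188 peaks, or 26.6% (23.5 to 30.0), a start site of the nearest gene had an IDR summit of its own at 500 bp or less. Over all 13945 coding genes the share with such a peak was 19.5%, with each gene counted once. In the 26.6%, a gene near several peaks is counted for each of them. By sequence, 9.49% of eligible bases had such a gene nearest, so the peaks stood by these genes more often than eligible bases did. By the same rule the share was 29.6% in replicate 1, against 9.77% of eligible bases, and 24.0% in replicate 2, against 11.3%. The strongest and weakest of the 5 parts by signal had 28.2% and 24.8%.

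Gene lists, 20 in all, were then read against the 8.04% background. Of 38 genes for signalling ligands and receptors with eligible sequence, 12 were nearest to a peak (31.6%, 19.1 to 47.5), with 17 peaks at 161.3 per Mb. The median IDR rank of the 17 was 3366, against 4035 for all the peaks. All 12 had their strongest peak upstream, but these genes are longer than 5 kb, so the rule left them almost no eligible sequence downstream. The strongest were those at ds and fz and those at ft, the cadherin partner of ds (ranks 504 and 373 in replicates 1 and 2), and dpp, a ligand of the BMP family (ranks 961 and 834, signals 536.7 and 279.5). The rest were near ths, Ser, ptc, upd3, Wnt4, daw, Pvf2 and hh, at IDR ranks from 1097 to 6675. Of the 12, ft had a promoter peak. Since genes with long gaps have more eligible sequence, a list's density per Mb is given beside its share of genes, and over all eligible sequence that density was 55.9.

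For ecdysone response genes, 5 of 22 were nearest to a peak, at 95.0 per Mb (5 peaks in 52.61 kb of eligible sequence). They were ImpE2 at 539 bp (IDR rank 1857), Ldh (2216), rpr, a cell death gene (3431), and the nuclear receptor genes Hr38 (5633) and Eip75B (7510). The rpr peak had a summit in replicate 2 alone, at rank 3030. The list of Enhancer of split genes, which act below Notch, and of bHLH repressor genes had 4 of 17 nearest to a peak. Beside E(spl)malpha-BFM these were E(spl)m3-HLH (ranks 1509 and 1437 in replicates 1 and 2), E(spl)mbeta-HLH (2211 and 4758) and hry (IDR rank 4273). At 4 peaks in 41.85 kb of eligible sequence, the density of that list was 95.6 per Mb. The densities of both lists rest on few peaks, carry no interval and were not tested against the density of all eligible sequence.

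Among axon guidance and cell adhesion genes 7 of 36 were nearest to a peak, led by trn, kek1, robo2 and caps at IDR ranks 2028 to 2814, at 60.5 peaks per Mb. Among patterning transcription factors it was 7 of 66 (10.6%), with ct, srp, sob and slp2 first, at 37.3 peaks per Mb. Insulin and growth genes had 3 of 11, namely ft, foxo with 2 peaks (the stronger at ranks 487 and 577 in replicates 1 and 2) and Myc, at 225.2 per Mb. Neuronal genes had 3 of 21 (Ddc, chinmo and Imp) at 65.4 per Mb and muscle genes 3 of 22 (sls, Act57B and how) at 64.9. The list of insulator and promoter architecture genes had 2 of 7 at 220.1 per Mb, namely lola and pnt, and pnt is known as an ETS transcription factor of receptor tyrosine kinase signalling. Polycomb and Trithorax group genes had 2 of 9 (ph-d with 2 peaks and Psc) at 270.8 per Mb. The densities of these last lists and of the insulin list rest on 2 to 4 peaks each in under 18 kb of eligible sequence.

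In 6 larger gene families the share of genes was near the background or below it, and the density per Mb was above it in 2. Cuticle protein genes had 7 of 100 nearest to a peak (7.0%, 3.43 to 13.8), with Cpr72Ea first at ranks 553 and 240 in replicates 1 and 2, then Cpr72Eb, Cpr51A and Cpr65Ea, and a density of 61.0 per Mb. Chemosensory receptor genes had 7 of 109 (6.42%) with 13 peaks, led by Gr93d, Gr93a, Gr93b and Gr89a, at 41.1 per Mb. The dpr and DIP immunoglobulin genes had 1 of 27 (dpr20) at 13.6 per Mb. Cytoplasmic ribosomal protein genes had 3 of 36 (RpL40, RpS23 and RpL22) at 67.1 per Mb, and 43 of their 86 genes had a promoter peak. Mitochondrial ribosomal protein genes had 0 of 17 and heat shock genes 0 of 14, with upper Wilson bounds of 18.4% and 21.5%. These 2 lists had only 6.97 and 19.2 kb of eligible sequence, too little to read the absence of peaks as a shortage.

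The 4 remaining lists had 1 gene each, namely bcd of 11 Hox and homeotic cofactor genes, dco of 8 circadian clock genes, PGRP-SA of 16 innate immunity genes and rpr of 7 cell death genes, at 37.7, 60.4, 53.4 and 37.4 per Mb. With so few genes a list's interval reaches from below the background to several times it, and of the 20 lists the intervals of signalling, ecdysone, axon guidance, insulin and growth, and Enhancer of split genes lay above 8.04%. That background does not allow for the eligible sequence of each gene. By density, axon guidance genes at 60.5 per Mb were near the 55.9 of all eligible sequence. The lists were also chosen with earlier results of these data known. The interval of the insulator and promoter architecture list began at 8.22%, at the background, and rests on 2 genes, among them pnt. The genes share peaks and gaps, and the lists overlap, so the intervals are a description.

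**Figure D5:**
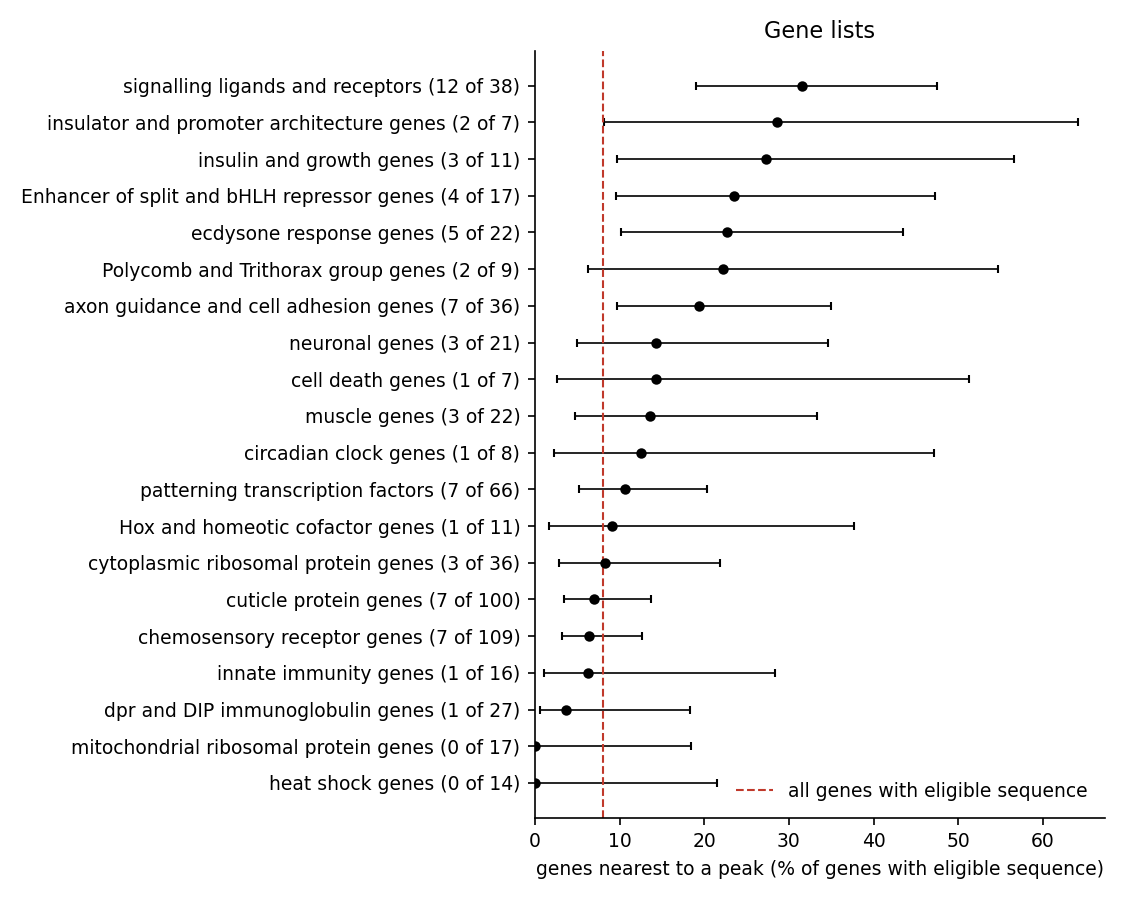
Genes nearest to a peak as a share of the list's genes with eligible sequence (x axis, %), for 20 gene lists (y axis, with counts), with Wilson 95% intervals; the dashed line is the 8.04% of all genes with eligible sequence. Signalling ligands and receptors are at 31.6%, and mitochondrial ribosomal protein and heat shock genes at 0.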

How the data were processed

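Peaks came from 2 biological replicates of 1 group. Per the deposited file descriptions, each replicate list (30000 peaks) was made from 1 alignment and a control alignment, a pooled list (30000 peaks) from both, and the IDR list from these lists, on dm6. The sources used here do not give the aligner, the peak caller or the depth, and the lists hold no read counts, so depth is unknown. The deposited signal is the authors' own on an unstated scale and ranks peaks within a list only. The deposited −log10 q-value was used as given. The other deposited value used, the offset of the summit within its interval in bp, set positions. The IDR peaks are the strongest of the pooled list. No column was left unassigned.

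Genes came from Ensembl release 115 (transposable elements left out) and sequence from the NCBI Release 6 assembly. Python 3.11.15 with numpy 2.4.6, pandas 2.3.3, scipy 1.17.1 and matplotlib 3.10.9 was used, and the position rule and nearest-summit search were tested on simulated data. With 1 group and 2 replicates, no p-value was computed: shares carry Wilson 95% intervals and densities exact Poisson 95% intervals, for counting error only. No interval was computed for the densities of gene lists. Per-replicate values apply the rule to as many of the strongest peaks of that list as the IDR list holds. Weighted windows have the peaks' A and T content in steps of 4 bases. Genes named are those nearest to the 20 peaks of highest signal, those nearest to 4 or more peaks, and up to 4 per list by signal; others were named after their values were seen. Of the list names, 3 had no match among current symbols and were dropped. The members and lists were chosen with earlier results of these data known. Alternatives were 1 replicate at a time, the strongest 25% of IDR peaks, the pooled list, and other distances and windows. Weighting by A and T content, weighting by distance and leaving out masked sequence were added after seeing the data. The sequence under 1 of the 10 strongest summits is not reported here.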

Additional observations from a re-analysis of the deposited data

How the results depend on the processing

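Moves of shares, densities and means are judged against 1 SD between the replicates' values. With each replicate's strongest peaks alone, the number of peaks was 680 to 732, the share upstream 75.96% to 77.35%, the share with a summit in both lists 82.51% to 91.62%, the median distance 2096 to 2184 bp, the A and T content 69.14% to 69.85%, the share with a neighbour within 2 kb 48.5% to 57.65%, the share near a gene with a promoter peak 24.04% to 29.56% and the share with TATAAA 25.96% to 27.06%.

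The strongest 25% of IDR peaks gave 165 peaks, 13.05 per Mb, 99.39% in both lists, 78.79% upstream, a median of 1999 bp, 70.68% A and T, 33.94% with a neighbour and 23.64% with TATAAA. Of these, 12.73% were near a gene with a promoter peak, against 3.28% of eligible bases for that list. The whole pooled list gave 2623 peaks, 207.4 per Mb, 46.63% in both lists, 74.76% upstream, 63.84% A and T, 89.33% with a neighbour, 20.36% with TATAAA and 61.72% near such a gene, against 26.4% of eligible bases. Both lists differ in length by construction.

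A start site distance of 250 bp gave 911 peaks, 64.23 per Mb, a median of 1621 bp, 82.22% upstream (72.1% of eligible bases) and 13.28% near a gene with a promoter peak (6.24% of eligible bases). At 1000 bp there were 551 peaks, and the last 3 were 2607 bp, 73.87% (65.7%) and 34.48% (11.7%). A limit of 2500 bp gave 399 peaks, a median of 1310 bp, 85.71% upstream (76.4%), 31.08% near such a gene (10%), 69.3% A and T and 24.31% with TATAAA. A limit of 10000 bp gave 1064 peaks, 3452 bp, 72.18% upstream (64.9%) and 27.35% with TATAAA. Under each of these settings the share upstream and the share near a gene with a promoter peak exceeded that of eligible bases.

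Summits shared within 50 bp were 77.65%. Windows of 100 bp each side gave 67.1% A and T and 40.74% with TATAAA, and peaks outside masked sequence 68.5%. A neighbour stood within 1 kb of 32.67% and within 5 kb of 75.95%. Of 189 values of the other motifs recomputed, 108 moved by more than 1 SD. That SD rests on 2 values and is small for rare motifs. For GAGAGAG it was 0.0222, beside a share of 0.283% from 2 peaks. The 189 include the pooled list and windows of 100 bp each side, so the count does not measure how stable the motif shares are. The unknown read depth limits what can be said of weak calls.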
